A study of Mus musculus with 30 samples.

Results

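The mitochondrial ribosome is built from ribosomal RNA of the mitochondrion's own genome and from proteins whose genes lie in the nucleus, and these data give the RNA level of those nuclear genes in mouse multipotent progenitors of the bone marrow. The members were all gene symbols made of Mrpl or Mrps and a number, with nothing after the number, that occurred in all 5 deposited tables with a mean of at least 1 TPM over 30 libraries, TPM being a level corrected for transcript length and scaled so that all genes of a library share a fixed total. All 74 symbols of that form passed, out of 24421 genes in the tables, and no symbol of that form fell under the limit. Of the 74, 24 encode proteins of the small subunit and 49 of the large subunit, among them Mrps30, whose protein sits in the large subunit despite its name. Mrps36 is kept apart, because its product is known as a component of the alpha-ketoglutarate dehydrogenase complex. By protein family, 45 have a counterpart in bacterial ribosomes and 28 are specific to mitochondria.

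Mitochondrial ribosomes translate the few messages of mitochondrial DNA, all of which encode core subunits of the respiratory chain and ATP synthase. Every protein of this ribosome is made in the cytosol, imported and assembled stepwise on the mitochondrial rRNAs, helped by GTPases, RNA helicases and rRNA-modifying enzymes. Blood stem cells are known to rely little on mitochondrial respiration, and their progeny use it more as they divide and differentiate.

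The 30 libraries come from bone marrow progenitors sorted by flow cytometry, in 10 groups of 3 libraries, laid out in 5 tables that each hold a T1 and a T2 group of one kind of mouse, cell and age. The tables are KOiMOS MPP3 at 3 months, WTiMOS MPP3 at 3 months, WTiMOS MPP3 at 24 months, WTiMOS MPP4 at 3 months and WTiMOS MPP4 at 24 months. MPP3 is a multipotent progenitor biased to the myeloid lineage and MPP4 one biased to the lymphoid lineage. The study asked what the transcription factor gene Bcl11a does in these cells and what its overexpression does in MPP3. The genotype label joins KOiMOS or WTiMOS with T1 or T2. The labels do not say what T1 and T2 stand for, what all of the mice share, which promoter drives any allele, whether the replicates are separate animals or whether T1 and T2 cells came from the same animals. P-values therefore measure the spread between 3 libraries, which may be technical. KOiMOS MPP3 at 24 months were not analysed here.

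Bcl11a itself was read first as a check of the labels. In all 4 WTiMOS tables its T2 libraries lay above its T1 libraries with no overlap. Group means were 45.2 and 78.5 TPM in MPP3 at 3 months, 11.2 and 39.1 in MPP3 at 24 months, 39.4 and 65.0 in MPP4 at 3 months, and 25.1 and 66.7 in MPP4 at 24 months. In KOiMOS MPP3 it was 70.3 TPM in T1 and 68.2 in T2, so the label KO does not show as a loss of Bcl11a RNA. A level per gene would not show a small deletion. The progenitor gate genes Kit, Cd34, Cd48, Ly6a and Flt3 were at 19.5 TPM or more in every library, while Slamf1, an antigen of more primitive cells, reached at most 2.79 TPM. Of 6 stromal and endothelial markers, Col1a1, Lepr, Cdh5 and Kdr were under 1 TPM in all libraries, as were Cd8a of T cells and Gp1bb and Vwf of megakaryocytes. The other genes of these lists reached 1 TPM in at least 1 library. Over the libraries the stromal and endothelial list summed to 3.744 to 130.4 TPM. The T, NK and innate lymphoid list (8 genes) summed to 368.6 to 2813 TPM and the megakaryocyte and platelet list (7 genes) to 9.591 to 479.8. Markers of maturing cells differed between T1 and T2. The mast cell and basophil list in KOiMOS MPP3 (9 genes) summed to 466 to 577 TPM in T1 and 4552 to 4870 in T2. The neutrophil and monocyte list in MPP3 at 24 months (8 genes) summed to 12160 to 13680 TPM in T1 and 2321 to 2711 in T2. The summed level of 4 Y-linked genes was at most 0.184 TPM in the T1 libraries of both 24-month tables and of MPP4 at 3 months, and 54.0 to 169.0 TPM in their T2 libraries, so Y-linked RNA separated T1 from T2 in those 3 tables. There a difference between T1 and T2 cells and a difference in the sex of the animals cannot be told apart. The same limit holds for each comparison below that uses those tables. In sorted bulk samples, fewer cells of a type and less RNA per cell cannot be told apart.

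The promoters of 6 members on which the results turn are shown, from 250 bases before to 50 after the annotated start, as RefSeq gives them on GRCm38.p6. Mrpl33 and Mrpl42, the most abundant members, had the largest gains in T2 cells of 3-month MPP4. Mrps5 and Mrpl3 were among those with the largest losses there. Mrpl44 was the only member that passed the test in all 5 tables, and Mrps30 stayed under 2 TPM in the KOiMOS libraries. Their windows are chr5:31613701-31614000 (plus strand), chr10:95501900-95502199 (minus strand), chr2:127587176-127587475 (plus strand), chr9:105053018-105053317 (plus strand), chr1:79775768-79776067 (plus strand) and chr13:118387203-118387502 (minus strand). Capitals mark matches to GCGCANGCG (NRF1, nuclear respiratory factor 1), CCGGAAGT (the ETS family, to which GABP belongs), AAGATGGC (YY1) or CACGTG (the E-box bound by Myc), searched on both strands.
Mrpl33: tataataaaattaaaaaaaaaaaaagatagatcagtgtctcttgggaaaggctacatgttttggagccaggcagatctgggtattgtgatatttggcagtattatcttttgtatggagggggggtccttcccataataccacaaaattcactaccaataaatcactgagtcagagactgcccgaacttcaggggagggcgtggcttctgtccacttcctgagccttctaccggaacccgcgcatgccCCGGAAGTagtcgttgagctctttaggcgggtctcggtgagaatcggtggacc
Mrpl42: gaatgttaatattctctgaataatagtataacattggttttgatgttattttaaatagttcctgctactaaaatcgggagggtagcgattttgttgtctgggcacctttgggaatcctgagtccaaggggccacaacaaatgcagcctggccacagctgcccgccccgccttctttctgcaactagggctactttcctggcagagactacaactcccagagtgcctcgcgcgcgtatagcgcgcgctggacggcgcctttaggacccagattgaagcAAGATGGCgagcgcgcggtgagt
Mrps5: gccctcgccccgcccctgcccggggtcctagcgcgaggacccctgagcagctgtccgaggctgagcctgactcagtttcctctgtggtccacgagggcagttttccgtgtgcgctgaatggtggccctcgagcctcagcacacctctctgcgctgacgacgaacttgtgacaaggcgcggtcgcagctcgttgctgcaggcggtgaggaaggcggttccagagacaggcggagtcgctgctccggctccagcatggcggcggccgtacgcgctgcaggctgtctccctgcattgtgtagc
Mrpl3: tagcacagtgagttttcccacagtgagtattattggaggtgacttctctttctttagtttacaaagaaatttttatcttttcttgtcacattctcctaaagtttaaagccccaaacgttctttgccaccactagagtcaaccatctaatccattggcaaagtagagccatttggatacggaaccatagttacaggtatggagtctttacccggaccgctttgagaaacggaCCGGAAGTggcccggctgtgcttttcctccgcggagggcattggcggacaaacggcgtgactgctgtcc
Mrpl44: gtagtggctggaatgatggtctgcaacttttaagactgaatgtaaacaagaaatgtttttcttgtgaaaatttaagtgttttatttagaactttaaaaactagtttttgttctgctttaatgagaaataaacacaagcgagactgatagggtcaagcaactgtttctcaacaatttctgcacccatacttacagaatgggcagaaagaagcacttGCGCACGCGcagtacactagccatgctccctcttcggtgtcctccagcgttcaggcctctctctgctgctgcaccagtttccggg
Mrps30: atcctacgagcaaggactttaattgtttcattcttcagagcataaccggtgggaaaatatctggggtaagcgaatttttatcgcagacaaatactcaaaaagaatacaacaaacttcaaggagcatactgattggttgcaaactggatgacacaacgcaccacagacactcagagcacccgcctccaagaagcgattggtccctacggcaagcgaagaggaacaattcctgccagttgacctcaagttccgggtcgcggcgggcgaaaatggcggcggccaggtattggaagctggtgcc

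RefSeq had a window for 65 of the 74 members. The NRF1 letters occurred in 15 of them (23.1%), the ETS letters in 11 (16.9%), the YY1 letters in 11 (16.9%) and the E-box in 4 (6.15%). Over the windows of 27025 genes the same letters occurred in 7.03%, 4.31%, 3.19% and 8.09%, and over the 9803 genes expressed at 1 TPM in 15.1%, 9.08%, 5.34% and 11.7%. Of the 6 printed windows, those of Mrpl33 and Mrpl3 hold the ETS letters, that of Mrpl42 the YY1 letters and that of Mrpl44 the NRF1 letters, while those of Mrps5 and Mrps30 hold none of the 4. Mrpl33 and Mrpl3 were picked for their large and opposite differences in 3-month MPP4. Whether any of these letters goes with the direction over the members was not tested.

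All 74 members were at 1 TPM or more in every library. Their mean TPM over the 30 libraries, which is per transcript length and so can be compared between genes, ran over a 41.0-fold range around a median of 129.1. Mrpl42, a large-subunit protein found only in mitochondria, had the highest mean at 1139 TPM, followed by Mrpl33 (bL33m) at 825, Mrpl23 (uL23m, a protein beside the exit of the polypeptide tunnel) at 532, Mrpl18 (uL18m) at 424 and Mrps33 at 416. Those 5 genes held 25.3% of the summed TPM of all members. The order shifted between tables: Mrpl42 ranked 1 in all 4 WTiMOS tables and 2 in KOiMOS MPP3, where Mrpl18 ranked 1, while Mrps5 ranked 28 in KOiMOS MPP3, 46 in WTiMOS MPP3 of 3 months and 73 in each of the other 3 tables. The lowest means were those of Mrpl19 (27.8 TPM), Mrps25 (30.7) and Mrpl11 (34.5). Mean levels exceeded 100 TPM for 44 members. Shorter transcripts had higher levels, with a Spearman rho of -0.52 between mean level and transcript length across the 74 genes, a description over genes that share libraries. Members were short, with a median transcript of 1095 bases against 1952 for the 13225 genes expressed at 1 TPM in 3 libraries or more, and had a like GC content (50.5% and 50.7%). They lay on 17 chromosomes, 10 of them on chromosome 11.

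Summed over the 74 genes, both 3-month MPP3 tables lay below the other 3 tables, and the T1 and T2 libraries stood farthest apart in MPP4 of 3 months. KOiMOS MPP3 had 7525, 7642 and 7768 TPM in T1 and 8000, 7685 and 8184 in T2. WTiMOS MPP3 of 3 months had 9240, 8993 and 9175 TPM in T1 and 9987, 9108 and 9108 in T2. The other 3 tables lay higher in every library. WTiMOS MPP3 of 24 months had 15950, 16430 and 16420 TPM in T1 and 16860, 16580 and 16540 in T2. MPP4 of 3 months had 15010, 14840 and 14700 in T1 and 18370, 19580 and 19110 in T2, the T2 libraries being the highest of all 30. MPP4 of 24 months had 15410, 16510 and 16640 in T1 and 15010, 14500 and 14160 in T2, with T2 below T1 in every library. Members thus held from 0.753% to 1.96% of all TPM.

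**Figure D1:**
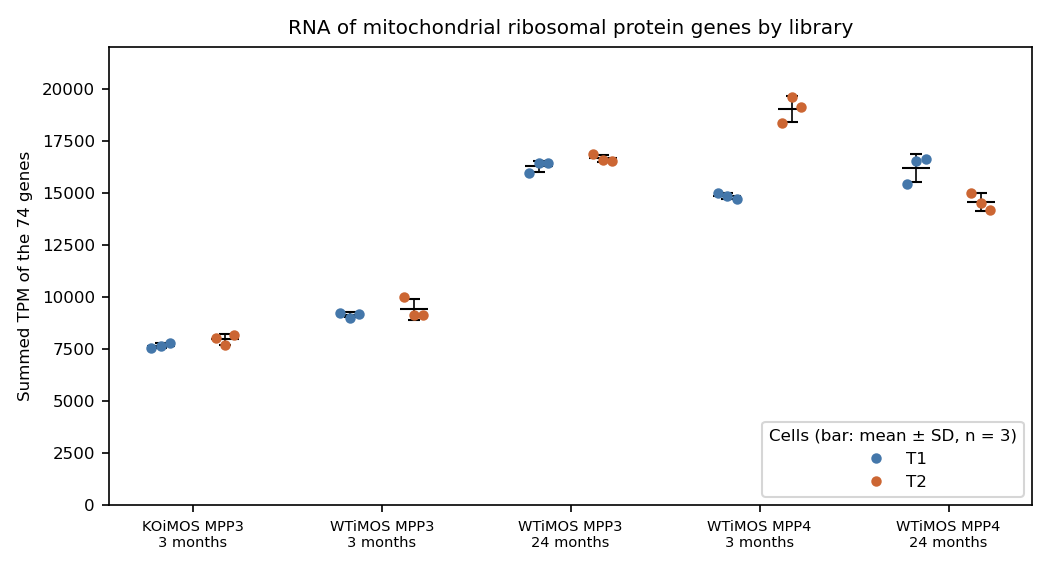
Summed TPM of the 74 mitochondrial ribosomal protein genes (y axis) in each of 30 libraries, by table (x axis) and for T1 and T2 cells; points are libraries and bars the mean ± SD of 3. Both 3-month MPP3 tables lie lowest and the other 3 tables lie above them in every library, with T2 above T1 in MPP4 at 3 months and below it in MPP4 at 24 months.

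Because each table holds one condition, a difference in level between tables and a difference between the conditions cannot be told apart, and no test was made. As a description, 38 of 74 members (51.4%) were higher in every library of MPP3 at 24 months and of both MPP4 tables than in any library of the 3-month MPP3 tables, against 9.1% of 13225 genes. Another 9 (12.2%) were lower in every library, against 25.6% of all genes. The ratio of the mean levels had a median of 1.57 for members and 0.628 for all genes, and ran from 0.258 for Mrps5 to 5.06 for Mrpl42. Mrpl42 lay between 239 and 497 TPM in the 12 libraries of 3-month MPP3 and between 1117 and 2725 in the other 18. Mrps5 lay between 82.9 and 116 in the first and 7.64 and 39.4 in the second. Mrps21 (4.52), Mrps28 (4.13) and Mrpl33 (4.09) followed Mrpl42, and Mrpl38 (0.356) and Mrpl10 (0.417) followed Mrps5. Levels in MPP3 of 24 months stood above those of 3 months in every library for 41 members and below for 19, where 16.9% and 40.7% of all genes did so. MPP4 against MPP3 at 3 months gave a like picture, with 42 above and 15 below, where 16.5% and 37.8% of all genes did so. MPP4 at 24 months lay above MPP3 of that age for 6 members (8.11%) and below for 4 (5.41%), where 5.95% and 1.93% of all genes did so. MPP4 of 24 months lay above that of 3 months for 1 member (1.35%) and below for 2 (2.7%), where 1.33% and 0.763% of all genes did so. KOiMOS against WTiMOS MPP3 of 3 months was higher without overlap for 8 members and lower for 28, where 20.1% and 18.2% of all genes were higher and lower.

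Mrps30 (mL65) was the extreme case of the last difference. It had 1.25, 1.22 and 1.80 TPM in the T1 and 1.17, 1.73 and 1.39 TPM in the T2 libraries of KOiMOS MPP3, and 132, 108 and 140.4 TPM in T1 and 156, 147 and 167 TPM in T2 of WTiMOS MPP3 of the same age. The 24 WTiMOS libraries lay between 48.5 and 167 TPM and the 6 KOiMOS libraries between 1.17 and 1.80, with nothing between. Over all genes, 13 were at 10 TPM or more in all WTiMOS libraries and more than 5 times lower in every KOiMOS library, Mrps30 being the only member among them, and 2 showed the opposite pattern. This pattern was chosen after its values were seen. Exons of Mrps30 overlap those of B430218F22Rik on the opposite strand, and the sources used here do not say whether reads were counted by strand. Of all members, 30 have exons that overlap another gene, 26 of them one on the opposite strand and 7 one on the same strand. Mrpl33 and Mrpl3 are overlapped on the same strand, by Gm43809 and Gm38077. Mrpl18 is overlapped on the opposite strand by Tcp1, which had a mean of 337 TPM.

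**Figure D2:**
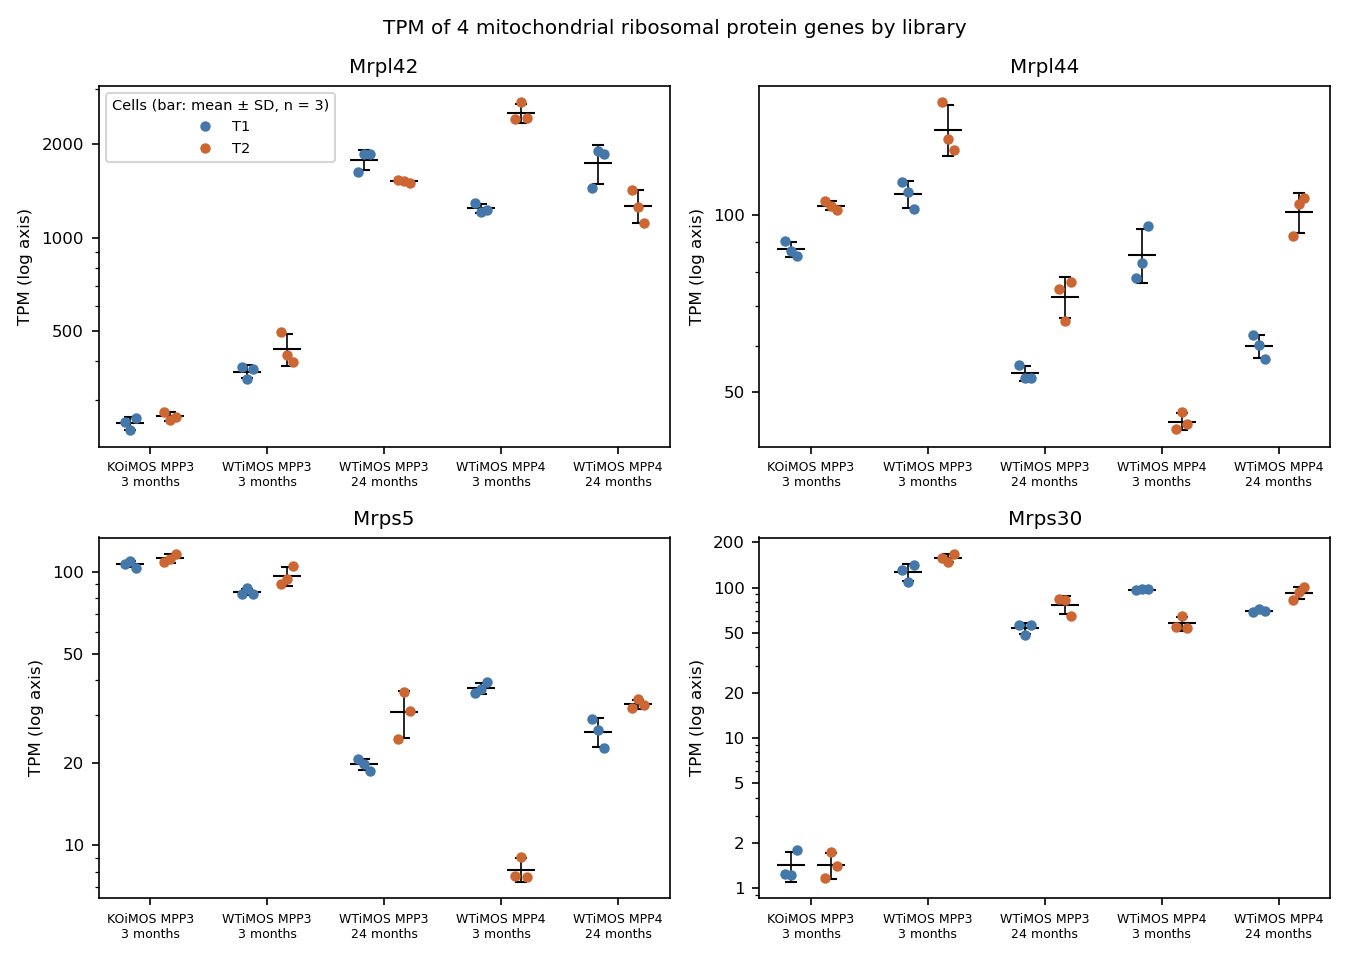
TPM (log axis) of Mrpl42, Mrpl44, Mrps5 and Mrps30 in each library, by table, for T1 and T2 cells; bars are the mean ± SD of 3 libraries. Mrps30 lies under 2 TPM in KOiMOS MPP3 and above 48 TPM elsewhere, Mrpl42 is higher and Mrpl44 and Mrps5 lower in T2 cells of 3-month MPP4, and Mrps5 and Mrpl42 differ in opposite directions between the 3-month MPP3 tables and the rest.

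Within each table, T2 cells were compared with T1 cells by limma on log2(TPM + 1), and a gene was called at a Benjamini-Hochberg adjusted p under 0.05 over all genes tested. Each log2 difference is T2 minus T1, given ± its SE with 3 libraries per group, and fold changes are on the same log2(TPM + 1) scale. TPM are shares of a fixed total, so a few genes that take a larger share lower all others. Each library was therefore also rescaled by the median ratio of its genes to their geometric mean over all libraries. That ratio used the 8913 genes above 1 TPM in all 30 libraries. Rescaling moved the median difference of all genes from -0.74 to 0.04 in MPP4 at 3 months and from 0.43 to 0.06 in MPP4 at 24 months. This median moved from 0.18 to 0.01 in MPP3 at 24 months, from 0.10 to -0.01 in WTiMOS MPP3 at 3 months and from -0.04 to -0.01 in KOiMOS MPP3. The rescaled values tell how a member moved relative to the typical gene, and are given beside the counts of members called.

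Over the 5 tables, 65 members (87.8%) were called in at least 1 table and 24 (32.4%) in at least 3, against 96.4% and 46.0% of the 10359 genes tested in all 5 tables. Calls in both directions were made for 46 members (62.2%, against 67.5% of those genes), and only Mrpl13, Mrpl32, Mrpl48, Mrpl50 and Mrps6 were called in 2 or more tables and always higher. No table called Mrpl15, Mrpl27, Mrpl40, Mrpl41, Mrpl55, Mrps11, Mrps12, Mrps25 or Mrps35. On the TPM scale the members thus had no common direction from T1 to T2. MPP4 of 3 months had the most calls and the widest range of folds, from 0.237 to 2.08. WTiMOS MPP3 of 3 months had the fewest calls.

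**Figure D3:**
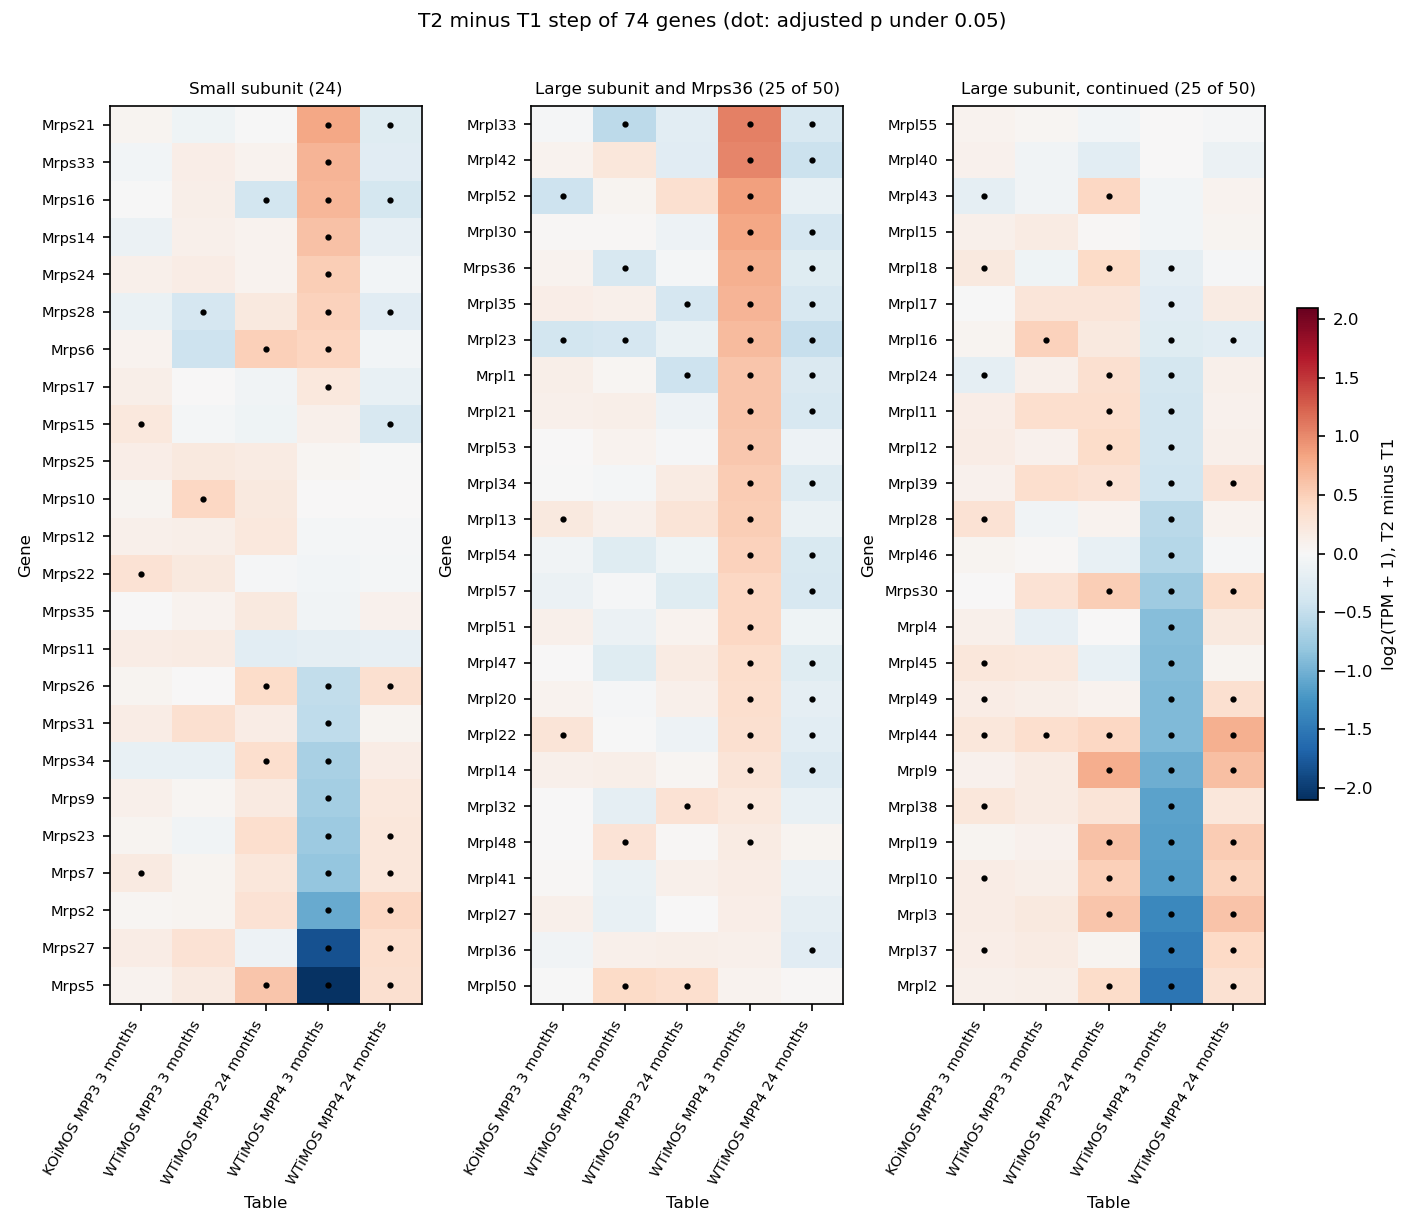
Difference between T2 and T1 cells (colour, log2(TPM + 1), T2 minus T1) of each of the 74 genes (rows, by subunit) in the 5 tables (columns); dots mark adjusted p under 0.05. The column of 3-month MPP4 holds both the strongest gains (Mrpl33, Mrpl42) and the strongest losses (Mrps5, Mrps27), and the column of 24-month MPP4 shows the opposite sign for most of these genes; after rescaling, 55 of 60 calls at 3 months are higher and 54 of 55 at 24 months lower.

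In MPP4 at 3 months, 29 of 74 members were higher in T2 and 30 lower, against 8.71% and 72.6% of 11288 genes (55 and 5 after rescaling). With the trend of GC content and transcript length removed, 22 members were higher and 34 lower. The median member stood at 0.00 and the median gene at -0.74, and after rescaling the median member stood at 0.91. The small subunit (8 higher and 9 lower of 24) and the large subunit (20 higher and 21 lower of 49) split alike. T1 and T2 libraries did not overlap for 61 members (82.4%), against 81.8% of all genes tested, and 33 members (44.6%) were called with at least 1.5-fold, against 65.1%. After rescaling 29.2% of all genes were higher and 22.7% lower. Leaving out any 1 library left 56 to 59 calls.

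The 2 most abundant members gained most. Mrpl33 had 854, 818 and 729 TPM in the T1 libraries and 1607, 1718 and 1654 TPM in the T2 libraries, a 2.08-fold gain (log2 difference 1.05 ± 0.06, adjusted p = 1.83e-09). For Mrpl42 the libraries gave 1292, 1206 and 1230 TPM in the T1 libraries and 2403, 2725 and 2432 TPM in the T2 libraries, a 2.02-fold gain (log2 difference 1.02 ± 0.05, adjusted p = 1.04e-09). In both genes every T2 library was well above every T1 library. Mrpl52, specific to mitochondria, had 174, 172 and 161 TPM in the T1 libraries and 312, 295 and 319 TPM in the T2 libraries (log2 difference 0.86 ± 0.07, adjusted p = 3.82e-08). Mrpl23 had 641, 638 and 651 TPM in the T1 libraries and 971, 1028 and 1059 TPM in the T2 libraries (log2 difference 0.66 ± 0.05, adjusted p = 4.55e-08). Here too the groups were apart. Among small-subunit genes, Mrps33 had 503, 502 and 452 TPM in the T1 libraries and 828, 773 and 787 TPM in the T2 libraries (log2 difference 0.71 ± 0.06, adjusted p = 8.19e-08). Mrps21 (log2 difference 0.81 ± 0.06, adjusted p = 2.55e-08), Mrpl30 (log2 difference 0.81 ± 0.06, adjusted p = 1.46e-08) and Mrps36 (log2 difference 0.75 ± 0.07, adjusted p = 1.44e-07) rose by like amounts. All 29 members that were higher stayed so after rescaling. Rescaling raises the differences in this table, so those 29 calls could hardly have ended. With the trend of GC content and length removed, Mrps33 fell short of the test (log2 difference 0.15, adjusted p = 0.0529).

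On the TPM scale, where 72.6% of all genes were lower, the largest losses were steeper than the largest gains. Rescaling makes the losses smaller and the gains larger. Mrps5 (uS5m), a conserved protein of the small subunit, had 35.9, 37.1 and 39.4 TPM in the T1 libraries and 7.71, 9.06 and 7.64 TPM in the T2 libraries, which is 0.237-fold of the T1 level (log2 difference -2.08 ± 0.12, adjusted p = 2.88e-09). Mrps27, a pentatricopeptide-repeat protein, had 39.8, 52.2 and 62.05 TPM in the T1 libraries and 11.95, 14.98 and 13.8 TPM in the T2 libraries (log2 difference -1.83 ± 0.15, adjusted p = 8.01e-08). No T2 library of either gene reached its T1 libraries. Mrpl2 (uL2m), close to the peptidyl transferase centre, had 171, 173 and 216 TPM in the T1 libraries and 57.04, 69.7 and 64.7 TPM in the T2 libraries (log2 difference -1.53 ± 0.10, adjusted p = 1.06e-08). Mrpl37, specific to mitochondria, had 83.7, 86.5 and 94.5 TPM in the T1 libraries and 28.8, 34.3 and 33.1 TPM in the T2 libraries (log2 difference -1.43 ± 0.10, adjusted p = 1.81e-08). Mrpl3 (uL3m), also near the peptidyl transferase centre, had 82.6, 88.6 and 85.1 TPM in the T1 libraries and 29.01, 35.5 and 33.6 TPM in the T2 libraries (log2 difference -1.36 ± 0.10, adjusted p = 2.91e-08). These 5 were the only members lower on both scales (rescaled log2 differences -1.24, -0.96, -0.63, -0.54 and -0.47). Of the 30 members lower in TPM, 11 were higher after rescaling and 14 not called, Mrpl10, a stalk protein, among the latter (log2 difference -1.15 ± 0.11, adjusted p = 3.41e-07; -0.27 after rescaling, adjusted p = 0.0523). Mrpl18, the largest member of the 11 by level, went from -0.19 to 0.72.

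The T2 libraries of this table also stood apart as libraries. They held 10519 to 10660 genes at 1 TPM against 11375 to 11474 in T1, and their 500 most abundant genes held 70.3 to 70.6% of all TPM against 55.1 to 55.9% in T1. The proliferation list of 25 genes was lower for 24 of them, where 72.6% of all genes were lower. Its summed level was 4081 to 4245 TPM in T1 and 2509 to 2555 in T2. The erythroid list (8 genes) summed to 29.2 to 45.7 TPM in T1 and 296 to 374 in T2. The part of these in the members' differences was not tested.

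In MPP4 at 24 months the pattern turned over. T2 cells had 16 members higher and 21 lower, against 58.2% and 7% of 11366 genes (1 and 54 after rescaling; 20 and 9 with the trend of GC content and transcript length removed). The median member stood at -0.03 and the median gene at 0.43, and after rescaling the median member stood at -0.45. Of all genes, 15.9% were higher and 18.5% lower after rescaling. The members lower in T2 included 17 of 45 with a bacterial counterpart and 3 of 28 specific to mitochondria. Members higher in T2 occurred in both classes, and the split was not tested. Calls numbered 22 without T1 replicate 3 and 24 without T2 replicate 2, against 37 with all libraries, and reached 44 without T2 replicate 1.

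Mrpl23 had the largest loss, with 694, 813 and 838 TPM in the T1 libraries and 553, 563 and 546 TPM in the T2 libraries (log2 difference -0.49 ± 0.08, adjusted p = 0.000539). For Mrpl42 there were 1445, 1897 and 1856 TPM in the T1 libraries and 1425, 1256 and 1117 TPM in the T2 libraries (log2 difference -0.45 ± 0.11, adjusted p = 0.00628). Neither gene's groups overlapped, though for Mrpl42 the highest T2 and the lowest T1 library nearly met. Mrps16 (log2 difference -0.37 ± 0.08, adjusted p = 0.00298), Mrpl30 (log2 difference -0.36 ± 0.07, adjusted p = 0.00145) and Mrpl21 (log2 difference -0.33 ± 0.07, adjusted p = 0.0032) were lower by like amounts. With the trend of GC content and length removed, Mrpl42 (log2 difference -0.17, adjusted p = 0.173) and Mrpl30 (-0.09, adjusted p = 0.25) were no longer called, while Mrpl23, Mrps16 and Mrpl21 were. Mrpl33, the largest gain at 3 months, was lower here (log2 difference -0.34 ± 0.11, adjusted p = 0.0191), a call that ended without T1 replicate 2 or 3 or T2 replicate 2 or 3 (adjusted p from 0.0603 to 0.0765) and without the filter (adjusted p = 0.0571). With the trend of GC content and length removed, its difference was -0.02 (adjusted p = 0.838).

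Mrpl44, a protein with an RNase III-like fold, led the members that were higher, with 62.5, 60.1 and 56.98 TPM in the T1 libraries and 92.3, 105 and 107 TPM in the T2 libraries (log2 difference 0.75 ± 0.09, adjusted p = 0.000114). Mrpl9 (bL9m) had 45.6, 45.4 and 42.3 TPM in the T1 libraries and 68.6, 65.97 and 73.6 TPM in the T2 libraries (log2 difference 0.63 ± 0.09, adjusted p = 0.000284). Mrpl3 had 70.8, 62.8 and 64.8 TPM in the T1 libraries and 109, 94.8 and 97.8 TPM in the T2 libraries (log2 difference 0.60 ± 0.09, adjusted p = 0.000402). In each of the 3 genes all T2 libraries exceeded all T1 libraries. Mrpl19 (log2 difference 0.54 ± 0.11, adjusted p = 0.00184), Mrpl10 (log2 difference 0.47 ± 0.13, adjusted p = 0.00808) and Mrps2 (log2 difference 0.44 ± 0.11, adjusted p = 0.00547) rose too. Of the 16 members higher in TPM only Mrpl44 was called higher after rescaling (0.33, adjusted p = 0.0168), while all 21 lower ones stayed lower. Rescaling lowers the differences in this table, so those 21 calls could hardly have ended. Mrps5 had 28.9, 26.4 and 22.7 TPM in the T1 libraries and 31.6, 34.1 and 32.6 TPM in the T2 libraries (log2 difference 0.33 ± 0.11, adjusted p = 0.0244). Its groups did not overlap, but the call ended without T1 replicate 2 or 3 or T2 replicate 2 or 3 (adjusted p from 0.0515 to 0.118) and with the replicate block (adjusted p = 0.0534), and the sign turned after rescaling (-0.09, adjusted p = 0.591).

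Beside these differences, the libraries of this table also differed in breadth, in the direction opposite to that at 3 months, with 10868 to 10877 genes at 1 TPM in T1 and 11466 to 11498 in T2. The proliferation list summed to 4641 to 4695 TPM in T1 and 3918 to 4022 in T2. Of its 25 genes 4 were higher and 7 lower, where 58.2% and 7% of all genes were so. The neutrophil and monocyte list summed to 2151 to 2300 TPM in T1 and 843 to 1004 in T2. Their part in the result was not tested.

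The change of the T2-T1 step between ages was tested itself in MPP4. The step was higher at 24 than at 3 months for 28 members and lower for 32, against 79.2% and 7.81% of 11075 genes (8 and 57 after rescaling; 35 and 22 with the trend of GC content and transcript length removed). Among all genes the step was higher at 24 months for 25.5% and lower for 25.9% after rescaling. Of 35 members called at both ages, 34 (97.1%) had opposite signs, 18 higher at 3 months and lower at 24 and 16 the reverse, and Mrpl16 was lower at both. After rescaling 52 members were called at both ages, each higher at 3 and lower at 24 months, among them all 18 of the first kind and none of the 16. Rescaling raises the differences at 3 months and lowers those at 24 months, so the 18 could hardly have changed. The rescaled differences of Mrpl16 were 0.64 at 3 months (adjusted p = 0.000338) and -0.64 at 24 months (adjusted p = 0.000175). Its TPM call at 24 months ended with the trend of GC content and length removed (-0.08, adjusted p = 0.408), with the replicate block (adjusted p = 0.0927), without the filter (adjusted p = 0.0623) and without T1 replicate 1 or 3 or T2 replicate 1 or 2 (adjusted p from 0.0766 to 0.128). At 3 months it ended without T1 replicate 3 or T2 replicate 1 (adjusted p = 0.0812 and 0.0706). On the TPM scale, 92.9% of the 6207 genes called at both ages had opposite signs, a share close to that of the members. Spearman's rho between the steps at 3 and at 24 months was -0.89 over the 74 members and -0.25 over the 11075 genes, a description across genes measured in the same libraries. The smallest adjusted p-values were those of Mrps5 (steps at 24 and 3 months of 0.33 and -2.08, difference 2.40 ± 0.17, adjusted p = 3.49e-12), Mrpl3 (difference 1.96 ± 0.14, adjusted p = 4.01e-12), Mrpl2 (1.85 ± 0.13, adjusted p = 7.5e-12) and Mrpl44 (1.67 ± 0.14, adjusted p = 4.52e-11). In the other direction the step of Mrpl42 changed by -1.47 ± 0.13 (adjusted p = 2.33e-08) and Mrpl33 by -1.39 ± 0.12 (adjusted p = 1.4e-08). These 6 kept their direction and call with each library left out and after rescaling. For Mrpl42 and Mrpl33, rescaling moves the difference further in its own direction, so it could hardly have ended those calls.

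**Figure D4:**
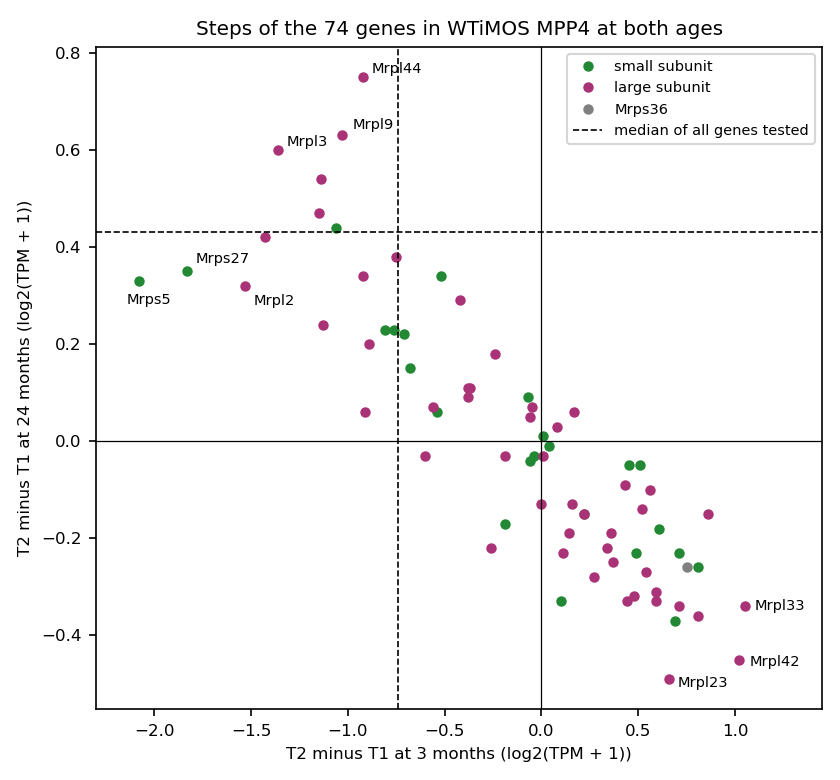
Difference between T2 and T1 cells (log2(TPM + 1), T2 minus T1) of the 74 genes in MPP4 at 3 months (x axis) and at 24 months (y axis), one point per gene. The points run from Mrps5 and Mrps27 at the lower end of the x axis and above 0 on the y axis to Mrpl33 and Mrpl42 at its upper end and below 0, with a Spearman rho of -0.89. After rescaling, 55 of 60 calls at 3 months are higher and 54 of 55 at 24 months lower.

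Level and transcript length ran along the same axis, as was looked at after the values were seen. At 3 months the shorter 37 members (up to 1095 bases) had 21 genes higher and 7 lower, and the longer 37 had 8 higher and 23 lower. At 24 months the shorter members had 2 higher and 15 lower and the longer ones 14 higher and 6 lower. For all genes split at the same length the shares at 3 months were 25% higher and 51.8% lower among shorter genes and 3.16% and 80% among longer ones, and at 24 months 42.1% and 15.8% among shorter and 63.7% and 4.11% among longer ones. Spearman's rho between the step and length over members was -0.42 at 3 months and 0.42 at 24 months (-0.14 and 0.24 over all genes), and between the step and the level outside the table itself 0.53 and -0.55 (-0.15 and -0.24 over all genes). GC content showed weaker relations over members (-0.19 and 0.11). Members share these libraries, and level and length are themselves related.

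**Figure D5:**
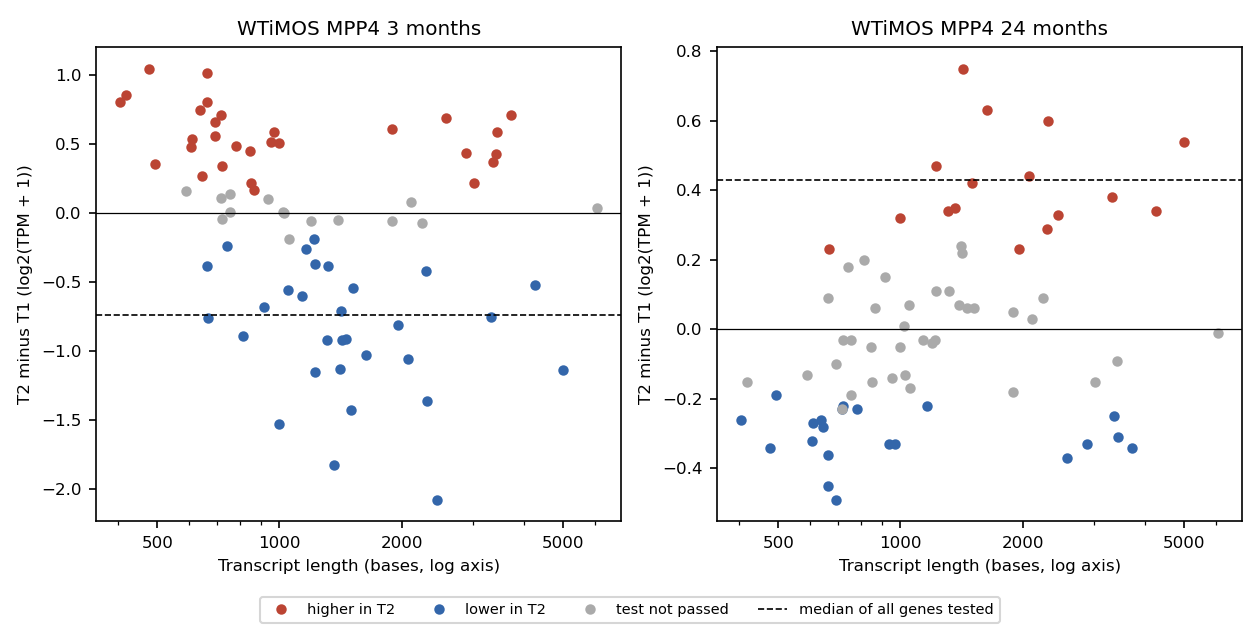
Difference between T2 and T1 cells (log2(TPM + 1), T2 minus T1) against transcript length (bases, log axis) for the 74 genes in MPP4 at 3 months (left) and 24 months (right); colours mark genes higher, lower or not called on the TPM scale and the dashed line the median of all genes tested. Most genes under 1000 bases lie above 0 on the left and below it on the right, and most lie above the dashed line on the left; after rescaling, 55 of 60 calls at 3 months are higher.

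MPP3 of 24 months had 19 members higher in T2 and 3 lower, against 30% and 12% of 11317 genes (4 and 13 after rescaling). The median member stood at 0.11 against 0.18 for all genes, and at -0.07 after rescaling. Of all genes, 19.3% were higher and 18.8% lower after rescaling. With the trend of GC content and transcript length removed, 28 members were higher and 4 lower. Calls fell to 10 without T1 replicate 3 and to 14 without T1 replicate 2, and numbered 28 without T2 replicate 1. Mrpl9 rose most, with 37.7, 48.01 and 40.6 TPM in the T1 libraries and 74.2, 71.9 and 69.4 TPM in the T2 libraries (log2 difference 0.76 ± 0.12, adjusted p = 0.000448). Mrpl19 had 15.7, 14.8 and 17.1 TPM in the T1 libraries and 26.4, 24.0 and 23.7 TPM in the T2 libraries (log2 difference 0.61 ± 0.12, adjusted p = 0.00255). Both genes had every T2 library above every T1 library. Mrpl3 had 59.7, 59.2 and 57.03 TPM in the T1 libraries and 106, 76.5 and 86.9 TPM in the T2 libraries (log2 difference 0.59 ± 0.13, adjusted p = 0.00311). Mrps6 (bS6m) had 128, 113 and 116 TPM in the T1 libraries and 163, 179 and 162 TPM in the T2 libraries (log2 difference 0.50 ± 0.10, adjusted p = 0.002). Their groups did not overlap either, and these 4 were the members still higher after rescaling. For Mrps5 there were 20.6, 19.8 and 18.7 TPM in the T1 libraries and 24.4, 36.4 and 30.9 TPM in the T2 libraries (log2 difference 0.59 ± 0.15, adjusted p = 0.00832; 0.41 after rescaling, adjusted p = 0.0621). Mrps30 rose as well (log2 difference 0.51 ± 0.13, adjusted p = 0.00797; 0.32 after rescaling, adjusted p = 0.068). Without T1 replicate 3 Mrpl10 fell short of the test (adjusted p = 0.0541, against 0.00818 with all libraries).

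The 3 members that were lower stayed so after rescaling, which lowers the differences in this table and so could hardly end such calls. Mrps16 (bS16m) had 453, 488 and 465 TPM in the T1 libraries and 342, 361 and 367 TPM in the T2 libraries (log2 difference -0.39 ± 0.09, adjusted p = 0.00407). Mrpl1 (uL1m, part of the stalk that contacts outgoing transfer RNA; log2 difference -0.43 ± 0.12, adjusted p = 0.0163) and Mrpl35 (log2 difference -0.35 ± 0.10, adjusted p = 0.0158) lost their calls without T1 replicate 3, T2 replicate 2 or T2 replicate 3 (adjusted p from 0.0505 to 0.0764). The neutrophil and monocyte markers, lower in T2 as given above, and the erythroid list (47.6 to 67.96 TPM in T1 and 819.6 to 1077 in T2) moved with these differences, and their part was not tested. The proliferation list had 6 genes higher and 6 lower of 25, where 30% and 12% of all genes were so.

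WTiMOS MPP3 of 3 months had the fewest calls, 5 members higher and 4 lower in T2, against 8.39% and 5.96% of 11723 genes (1 and 5 after rescaling; 7 and 2 with the trend of GC content and transcript length removed), shares near those of all genes. Without T1 replicate 1 there were 4, without T1 replicate 2 or T2 replicate 2 there were 3, and without T1 replicate 3 there were 5. Of all genes, 4.21% were higher and 7.77% lower after rescaling. Mrpl16 (uL16m) had 83.6, 78.6 and 73.1 TPM in the T1 libraries and 114, 106 and 111 TPM in the T2 libraries (log2 difference 0.49 ± 0.10, adjusted p = 0.00667), with no overlap, and was the one member higher on both scales. Mrpl33 went the other way, with 384, 372 and 386 TPM in the T1 libraries and 311, 245 and 232 TPM in the T2 libraries (log2 difference -0.55 ± 0.10, adjusted p = 0.00275), each T2 library under each T1 library. Mrpl23 was also lower, with 246, 268 and 241 TPM in the T1 libraries and 217, 191 and 183 TPM in the T2 libraries (log2 difference -0.35 ± 0.09, adjusted p = 0.0168), a call lost without T1 replicate 2, T2 replicate 2 or T2 replicate 3 (adjusted p from 0.0586 to 0.0875) and without the filter (adjusted p = 0.0557). Mrps10 rose (log2 difference 0.43 ± 0.09, adjusted p = 0.0076; 0.31 after rescaling, adjusted p = 0.0507). The calls of Mrpl44, Mrpl48, Mrpl50, Mrps28 and Mrps36 each depended on 4 or 5 of the 6 libraries, with adjusted p from 0.0278 to 0.036 over all libraries and up to 0.151 without one. B-cell markers summed to 802 to 1032 TPM in T1 and 193 to 252 in T2 (8 genes), and the proliferation list had 1 gene higher and 6 lower. Their part was not tested.

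KOiMOS MPP3 of 3 months had 13 members higher and 4 lower in T2, against 15.9% and 20.4% of 12100 genes (23 and 4 after rescaling; 10 and 6 with the trend of GC content and transcript length removed). Of all genes, 19.3% were higher and 17.3% lower after rescaling. The members' differences were small, from 0.742-fold to 1.24-fold, and 56 of 74 members lay above 0 with a median of 0.08, against -0.04 for all genes. Mrpl28 (bL28m) had 162, 169 and 179.8 TPM in the T1 libraries and 209.8, 203 and 223 TPM in the T2 libraries (log2 difference 0.31 ± 0.05, adjusted p = 0.000484), all T2 libraries above all T1 libraries. Mrps22 (log2 difference 0.30 ± 0.05, adjusted p = 0.000695), Mrpl22 (uL22m, in the wall of the exit tunnel; log2 difference 0.27 ± 0.05, adjusted p = 0.00208), Mrpl38 (log2 difference 0.23 ± 0.05, adjusted p = 0.00341), Mrpl44 (log2 difference 0.24 ± 0.05, adjusted p = 0.00159) and Mrpl45, which anchors the ribosome to the inner membrane (log2 difference 0.23 ± 0.05, adjusted p = 0.00583), were higher in the same way. In the other direction, Mrpl52 had 129, 137 and 132 TPM in the T1 libraries and 102, 86.5 and 108 TPM in the T2 libraries (log2 difference -0.43 ± 0.07, adjusted p = 0.000832). Mrpl23 had 181, 203 and 207 TPM in the T1 libraries and 159.7, 142 and 152 TPM in the T2 libraries (log2 difference -0.38 ± 0.06, adjusted p = 0.000391), again with no overlap. Mrpl24 (log2 difference -0.19 ± 0.04, adjusted p = 0.00503) and Mrpl43 (log2 difference -0.19 ± 0.05, adjusted p = 0.00995) were lower by less. All 17 called members kept their call after rescaling, and the 10 named here kept it with each library left out. Of the proliferation list, 22 of 25 genes were higher and 1 lower, with a median log2 difference of 0.77. Mast cell and basophil markers were higher in T2 as given above. Their part was not tested.

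The step of KOiMOS MPP3 differed from that of WTiMOS MPP3 of the same age for 10 members. These were 4 higher and 6 lower, against 7.65% and 14.6% of 11363 genes, shares under the background in both directions. Without WTiMOS T1 replicate 1 there were 5, and without WTiMOS T1 replicate 2 or T2 replicate 2 there were 6. After rescaling 10 members were higher and 0 lower, against 10.9% and 7.76% of all genes. With the trend of GC content and transcript length removed, 2 were higher and 7 lower. Mrpl28 (KOiMOS and WTiMOS steps 0.31 and -0.08, difference 0.39 ± 0.09, adjusted p = 0.00204) and Mrpl33 (steps -0.03 and -0.55, difference 0.52 ± 0.12, adjusted p = 0.00325) had the higher step in KOiMOS, and held after rescaling and with each library left out. Rescaling raises the differences of this comparison, so it could hardly have ended the calls of Mrpl28 and Mrpl33. Mrpl52 (steps -0.43 and 0.06, difference -0.49 ± 0.13, adjusted p = 0.00838) and Mrpl16 (steps 0.05 and 0.49, difference -0.44 ± 0.12, adjusted p = 0.0103) had the lower one, and neither was called after rescaling (adjusted p = 0.121 and 0.111). Mrpl52 was also not called with the pooled spread (adjusted p = 0.0561). For 6 of the 10, Mrpl18, Mrpl24, Mrpl48, Mrpl50, Mrps10 and Mrps36, leaving out 1 library or more ended the call.

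Between 3 and 24 months the step of WTiMOS MPP3 changed for 9 members, 7 higher at 24 months and 2 lower, against 11.8% and 6.36% of 10796 genes (5 and 3 after rescaling; 11 and 1 with the trend of GC content and transcript length removed). Without 3-month T1 replicate 2 there were 5, without 24-month T1 replicate 3 there were 3, and without 24-month T2 replicate 1 there were 16. Of all genes, 9.91% were higher and 7.95% lower after rescaling. Mrps6 went from a step of -0.43 at 3 months, which did not pass the test, to 0.50 at 24 months (difference 0.93 ± 0.19, adjusted p = 0.00201). At 3 months it had 51.7, 39.7 and 34.9 TPM in the T1 libraries and 33.1, 30.1 and 28.5 TPM in the T2 libraries, with T2 below T1 in every library. Mrpl18 (24- and 3-month steps 0.41 and -0.09, difference 0.50 ± 0.12, adjusted p = 0.00406) and Mrps28 (steps 0.20 and -0.36, difference 0.56 ± 0.14, adjusted p = 0.00766) changed alike. Mrpl42 went the other way (steps -0.23 and 0.24, difference -0.47 ± 0.12, adjusted p = 0.0091), a call that ended without 24-month T1 replicate 3 (adjusted p = 0.0521). This comparison and the one before it share the 3-month WTiMOS MPP3 libraries.

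At 3 months the step of MPP4 differed from that of MPP3 for 57 members, 27 higher and 30 lower, against 7.47% and 64.2% of 10781 genes (51 and 5 after rescaling; 17 and 36 with the trend of GC content and transcript length removed). Among all genes the step was higher in MPP4 for 22.2% and lower for 18.5% after rescaling. Mrps5 (MPP4 and MPP3 steps -2.08 and 0.19, difference -2.26 ± 0.16, adjusted p = 4.91e-12), Mrpl2 (steps -1.53 and 0.12, difference -1.65 ± 0.14, adjusted p = 2.19e-10) and Mrpl3 (steps -1.36 and 0.21, difference -1.58 ± 0.14, adjusted p = 3.52e-10) had the lower step in MPP4. Mrpl33 had the higher one (steps 1.05 and -0.55, difference 1.60 ± 0.12, adjusted p = 1.24e-10), rising in MPP4 and falling in MPP3. All 4 held after rescaling and with each library left out. Rescaling raises the differences of this comparison, so it could hardly have ended the call of Mrpl33.

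At 24 months the step differed between MPP4 and MPP3 for 10 members, each lower in MPP4, against 18% higher and 4.59% lower among 10968 genes (0 higher and 34 lower after rescaling; 3 and 6 with the trend of GC content and transcript length removed). Among all genes the step was higher in MPP4 for 7.9% and lower for 10.7% after rescaling. The members higher in MPP4 numbered 0 in the test of the difference with all libraries, 2 at an unadjusted p under 0.05, 1 with the spread pooled over all libraries and 3 (with 8 lower) without MPP4 T2 replicate 1. All 10 belong to the 45 members with a bacterial counterpart and none to the 28 specific to mitochondria, a split noticed after the values were seen and not tested. Mrps6 (MPP4 and MPP3 steps -0.05 and 0.50, difference -0.54 ± 0.13, adjusted p = 0.00497), Mrpl18 (steps -0.03 and 0.41, difference -0.44 ± 0.12, adjusted p = 0.00937), Mrps28 (steps -0.23 and 0.20, difference -0.43 ± 0.13, adjusted p = 0.0205) and Mrpl32 (steps -0.15 and 0.30, difference -0.45 ± 0.14, adjusted p = 0.0236) had the smallest adjusted p among them. Mrps6 and Mrpl18 held with each library left out, while Mrps28 and Mrpl32 did not (adjusted p up to 0.0621 and 0.0819). Mrps28 was also not called with the trend of GC content and length removed (-0.25, adjusted p = 0.211). The count was 5, 3 and 3 without MPP3 T1 replicates 1, 2 and 3, 6 and 4 without MPP4 T1 replicates 1 and 3, and 5 without MPP4 T2 replicate 2 or 3. With the replicate number as a block it was 6.

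Mrpl44 alone was called in all 5 tables. In KOiMOS MPP3 it had 90.3, 86.9 and 85.5 TPM in the T1 libraries and 106, 104 and 102 TPM in the T2 libraries (log2 difference 0.24 ± 0.05, adjusted p = 0.00159). WTiMOS MPP3 of 3 months gave 114, 109.6 and 103 TPM in the T1 libraries and 156, 135 and 129 TPM in the T2 libraries (log2 difference 0.36 ± 0.10, adjusted p = 0.0322). At 24 months MPP3 had 55.7, 52.8 and 52.9 TPM in the T1 libraries and 74.9, 66.2 and 77.1 TPM in the T2 libraries (log2 difference 0.43 ± 0.11, adjusted p = 0.00843). In these and in 24-month MPP4 every T2 library lay above every T1 library. In 3-month MPP4 the order was reversed, with 78.2, 83.1 and 95.9 TPM in the T1 libraries and 43.3, 46.2 and 44.2 TPM in the T2 libraries (log2 difference -0.92 ± 0.10, adjusted p = 1.08e-06). After rescaling it was called higher in KOiMOS MPP3 and in 24-month MPP4, and in neither of the other MPP3 tables (adjusted p = 0.213 and 0.0924) nor in 3-month MPP4 (-0.03, adjusted p = 0.856). The call of 3-month WTiMOS MPP3 was lost without any 1 of 5 of its 6 libraries, T1 replicates 1 to 3 and T2 replicates 1 and 2 (adjusted p from 0.0615 to 0.113), and without the filter (adjusted p = 0.0727). Exons of Mrpl44 overlap those of Wdfy1 on the opposite strand.

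The rest of the machinery was read through lists of genes. A list of 10 further genes held mitoribosome proteins whose symbols do not have the members' form, and Oxa1l, an insertase that binds the ribosome. Of these, 2 were higher and 4 lower in T2 cells of 3-month MPP4, against 8.71% and 72.6% of all genes. At 24 months 2 were higher and 3 lower, against 58.2% and 7% of all genes. Chchd1 (mS37) had at 3 months 375, 394 and 389.8 TPM in the T1 libraries and 723, 687 and 703 TPM in the T2 libraries (log2 difference 0.86 ± 0.06, adjusted p = 5.56e-09). At 24 months it had 459, 533 and 535 TPM in the T1 libraries and 375, 383 and 357 TPM in the T2 libraries (log2 difference -0.45 ± 0.08, adjusted p = 0.000804). It was thus higher in every T2 library at 3 months and lower in every one at 24 months. Mrps18c did likewise (log2 difference 0.82 ± 0.06, adjusted p = 1.35e-08 at 3 months; log2 difference -0.43 ± 0.09, adjusted p = 0.00231 at 24 months). Ict1 (mL62), a peptidyl-tRNA hydrolase built into the large subunit, was lower in T2 in 24-month MPP4 (log2 difference -0.42 ± 0.07, adjusted p = 0.000794), in MPP3 of both ages (log2 difference -0.42 ± 0.11, adjusted p = 0.0204 at 3 months; log2 difference -0.42 ± 0.10, adjusted p = 0.00519 at 24 months) and higher in KOiMOS MPP3 (log2 difference 0.22 ± 0.05, adjusted p = 0.00476).

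In MPP4 at 3 months 13 of 15 translation factors were lower and 1 higher, with medians of -0.80 for the list and -0.74 for all genes. Of assembly and rRNA-modifying factors 25 of 27 were lower, as were all 17 mitochondrial tRNA synthetases and 15 of 16 genes of mitochondrial DNA upkeep, where 72.6% of all genes were lower. After rescaling the medians of these 4 lists were 0.06, -0.23, -0.09 and 0.04, against 0.91 for the members. Slirp, a stabiliser of mitochondrial messages, was the translation factor that was higher. It had 368, 305 and 318 TPM in the T1 libraries and 725, 732 and 664 TPM in the T2 libraries (log2 difference 1.10 ± 0.07, adjusted p = 8.57e-09). Tufm, the mitochondrial elongation factor Tu, had 58.4, 61.3 and 65.4 TPM in the T1 libraries and 27.01, 23.04 and 22.5 TPM in the T2 libraries (log2 difference -1.32 ± 0.11, adjusted p = 7.84e-08). Ssbp1, which coats single-stranded mitochondrial DNA, rose (log2 difference 0.69 ± 0.06, adjusted p = 1.33e-07).

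At 24 months in MPP4, 8 translation factors were higher and 1 lower of 15, 15 assembly factors higher of 27, 10 tRNA synthetases higher of 17 and 13 DNA-upkeep genes higher of 16, none of these last 3 lists having a gene lower. Of all genes tested there 58.2% were higher, a share near those of the first 3 lists, and the rescaled medians of the 4 lists were -0.01, -0.07, 0.09 and 0.07 against 0.06 for all genes. The elongation factor-like GTPase Guf1 (log2 difference 0.79 ± 0.10, adjusted p = 0.000153), the methionyl-tRNA formyltransferase Mtfmt (log2 difference 0.74 ± 0.12, adjusted p = 0.000508) and the assembly factor Ngrn (log2 difference 0.81 ± 0.10, adjusted p = 0.000147) were higher in T2. After rescaling, Guf1 (0.37, adjusted p = 0.0152) and Ngrn (0.39, adjusted p = 0.0132) kept the call, and so did Mtfmt (0.34, adjusted p = 0.0493).

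In KOiMOS MPP3, 5 of 17 tRNA synthetases were higher and none lower, where 15.9% and 20.4% of all genes were higher and lower. Of 14 translation factors 3 were higher, Tufm included (log2 difference 0.26 ± 0.04, adjusted p = 0.000474), and 2 lower. Of 27 assembly factors 4 were lower, among them Mrm1, which methylates the large rRNA (log2 difference -0.53 ± 0.07, adjusted p = 0.000156). In WTiMOS MPP3 of 3 months none of the 6 mitochondrial lists had more than 3 genes called. At 24 months 9 assembly factors were higher, Ngrn among them (log2 difference 0.96 ± 0.15, adjusted p = 0.000393), and 2 lower, with Mettl15, which methylates the small rRNA, one of them (log2 difference -0.87 ± 0.19, adjusted p = 0.00404). In the same cells 5 of 15 translation factors were higher, and 5 of 17 tRNA synthetases were higher and 1 lower. The shares of the 3 lists were near the 30% of all genes that were higher in this table.

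Among 11 regulators of nuclear genes for mitochondria, Myc was called in every table on the TPM scale. Only Myc, Nrf1 and Gabpb1 of this list are described here. It had in KOiMOS MPP3 661, 656 and 661 TPM in the T1 libraries and 529, 539.7 and 532 TPM in the T2 libraries (log2 difference -0.30 ± 0.04, adjusted p = 4.23e-05), with T2 below T1. In WTiMOS MPP3 of 3 months it had 531, 522 and 557 TPM in the T1 libraries and 669, 781 and 732 TPM in the T2 libraries (log2 difference 0.43 ± 0.07, adjusted p = 0.000988), with T2 above T1. At 24 months it was higher in T2 in MPP3 (log2 difference 0.57 ± 0.10, adjusted p = 0.000827) and in MPP4 (log2 difference 0.82 ± 0.08, adjusted p = 4.01e-05). In 3-month MPP4 it was lower (log2 difference -0.91 ± 0.10, adjusted p = 9.17e-07), but not after rescaling (-0.01, adjusted p = 0.965). Nrf1 was lower in T2 of 3-month MPP4 (log2 difference -1.28 ± 0.13, adjusted p = 6.8e-07; -0.46 after rescaling, adjusted p = 0.00963). Gabpb1, a subunit of GABP, was higher in T2 of 24-month MPP4 (log2 difference 0.71 ± 0.10, adjusted p = 0.000308; 0.28 after rescaling, adjusted p = 0.0533).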

How the data were processed

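Mouse MPP3 and MPP4 cells were profiled by RNA sequencing of total RNA after low-input cDNA amplification, per the labels' protocols. The authors deposited TPM per gene in 5 tables of 6 libraries; HISAT2, StringTie, featureCounts, DESeq2 and the build mm10 are named in the submitters' processing notes without versions, but the sources used here do not say which tool gave the TPM, how strand was treated or how reads shared by genes were assigned. Every library sums to the same total, so sequencing depth is unknown and no counting interval can be given; 3 libraries a group set the precision. No column was left unmapped (0 of 30).

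Each table was fitted alone with limma 3.58.1 (R 4.3.3; trend and robust) on log2(TPM + 1), after keeping genes at 1 TPM or more in 3 of 6 libraries, with 4 residual degrees of freedom and Benjamini-Hochberg adjustment over all genes tested. A difference of steps combined both tables' moderated variances with Welch-Satterthwaite degrees of freedom. All 74 members passed the filter. The scripts were tested on simulated data. Each result was recomputed with 7 changes, one at a time. These were 0.1 as the pseudocount, every gene kept, libraries rescaled by median ratios and 1 spread for all 30 libraries. The others were replicate numbers as blocks, libraries left out in turn, and the trend of GC content and transcript length (GENCODE vM21, 98.5% of genes matched) removed. Levels were not tested across tables. Python 3.11.15, pandas 2.3.3 and matplotlib 3.10.9 were also used.

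The members and the gene lists were chosen with earlier results of these data known. Named members were, per table, up to 6 called higher and 6 called lower with no overlap and at least 5 TPM in the higher group, by largest change; up to 4 called per difference, by smallest adjusted p; those called in the same direction in 4 tables or more; and the 5 highest and 3 lowest by mean. Up to 3 genes per list and table were eligible by smallest p. Other members were named after their values were seen.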

Additional observations from a re-analysis of the deposited data

Results flagged for a closer look

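The results listed here are flagged because the T2 minus T1 step differed between 2 tables. The test was that of the difference between 2 separate limma fits, with Welch-Satterthwaite degrees of freedom. Each value is the difference on the log2 scale with its SE. Between KOiMOS and WTiMOS MPP3 at 3 months, 10 members differed, with Mrpl28 (0.39 ± 0.09, adjusted p = 0.00204), Mrpl33 (0.52 ± 0.12, adjusted p = 0.00325), Mrpl52 (-0.49 ± 0.13, adjusted p = 0.00838), Mrpl16 (-0.44 ± 0.12, adjusted p = 0.0103) by KOiMOS minus WTiMOS. Of all genes, 7.65% were higher and 14.6% lower there. Mrpl52 and Mrpl16 were not called after rescaling (adjusted p = 0.121 and 0.111). Between 24 and 3 months in MPP3, 9 differed, with Mrps6 (0.93 ± 0.19, adjusted p = 0.00201), Mrpl18 (0.50 ± 0.12, adjusted p = 0.00406), Mrps28 (0.56 ± 0.14, adjusted p = 0.00766), Mrpl42 (-0.47 ± 0.12, adjusted p = 0.0091) by 24 minus 3 months. In MPP4 the same comparison of ages gave 60, with Mrps5 (2.40 ± 0.17, adjusted p = 3.49e-12), Mrpl3 (1.96 ± 0.14, adjusted p = 4.01e-12), Mrpl2 (1.85 ± 0.13, adjusted p = 7.5e-12), Mrpl44 (1.67 ± 0.14, adjusted p = 4.52e-11). Between the ages, 11.8% of all genes were higher and 6.36% lower in MPP3, and 79.2% higher and 7.81% lower in MPP4.

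Between MPP4 and MPP3 of 3 months, 57 members differed, with Mrps5 (-2.26 ± 0.16, adjusted p = 4.91e-12), Mrpl33 (1.60 ± 0.12, adjusted p = 1.24e-10), Mrpl2 (-1.65 ± 0.14, adjusted p = 2.19e-10), Mrpl3 (-1.58 ± 0.14, adjusted p = 3.52e-10) by MPP4 minus MPP3. At 24 months 10 did, with Mrps6 (-0.54 ± 0.13, adjusted p = 0.00497), Mrpl18 (-0.44 ± 0.12, adjusted p = 0.00937), Mrps28 (-0.43 ± 0.13, adjusted p = 0.0205), Mrpl32 (-0.45 ± 0.14, adjusted p = 0.0236). Of all genes, 7.47% were higher and 64.2% lower in this comparison at 3 months, and 18% and 4.59% at 24 months. Pairs of the comparisons listed here share libraries, so they are not independent. The difference between tables and the difference between conditions cannot be told apart for any of them. In both 24-month tables and in MPP4 at 3 months, Y-linked RNA also separated T1 from T2.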

How the results depend on the processing

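The number of members called stayed within 1.5 times of the value in the report under each alternative other than those named here. Rescaling raised it to 27 in KOiMOS MPP3 and to 34 for MPP4 minus MPP3 at 24 months, and that last comparison gave 6 without the filter, 16 with the pooled spread and 6 with the replicate block; the pooled spread gave 6 for KOiMOS minus WTiMOS. The cause was not tested. A like count can hold other calls. Calls kept by member and direction after rescaling were 17 of 17 in KOiMOS MPP3 and 5 of 9 in WTiMOS MPP3 at 3 months. They were 7 of 22 in MPP3 at 24 months, 34 of 59 in MPP4 at 3 months and 22 of 37 at 24 months. For KOiMOS minus WTiMOS they were 4 of 10, and between ages 7 of 9 in MPP3 and 40 of 60 in MPP4. For MPP4 minus MPP3 they were 32 of 57 at 3 months and 10 of 10 at 24 months. Rescaling moves the differences of a comparison one way, so calls in that direction could hardly be lost. With 1 library left out, the counts ran 13 to 19 in KOiMOS MPP3, 3 to 8 in WTiMOS MPP3 at 3 months, 10 to 28 in MPP3 at 24 months, 56 to 59 in MPP4 at 3 months, 22 to 44 in MPP4 at 24 months, 5 to 11 for KOiMOS minus WTiMOS, 3 to 16 for 24 minus 3 months in MPP3, 59 to 60 for 24 minus 3 months in MPP4, 54 to 59 for MPP4 minus MPP3 at 3 months, 3 to 14 for MPP4 minus MPP3 at 24 months. In MPP4 at 3 months, Mrpl22 -0.03 and Mrpl48 -0.11 changed sign under GC content and transcript length trend removed. In MPP4 at 3 months, Mrpl28 0.35, Mrpl24 0.53, Mrpl16 0.64, Mrps30 0.16, Mrpl18 0.72 and Mrpl11 0.51 changed sign under median-ratio rescaling. In MPP4 at 24 months, Mrpl22 0.02, Mrps36 0.01 and Mrps21 0.02 changed sign under GC content and transcript length trend removed. In MPP4 at 24 months, Mrps5 -0.09, Mrps30 -0.04, Mrps27 -0.07 and Mrpl2 -0.10 changed sign under median-ratio rescaling. For 24 minus 3 months in MPP4, Mrpl22 0.05 changed sign under GC content and transcript length trend removed. For 24 minus 3 months in MPP4, Mrpl28 -0.71, Mrpl45 -0.33, Mrpl24 -0.85, Mrps30 -0.20 and Mrpl11 -0.84 changed sign under median-ratio rescaling. For MPP4 minus MPP3 at 3 months, Mrpl22 -0.09 and Mrps33 -0.04 changed sign under GC content and transcript length trend removed. For MPP4 minus MPP3 at 3 months, Mrpl28 0.54, Mrpl24 0.55, Mrpl16 0.27, Mrps10 0.61 and Mrpl11 0.27 changed sign under median-ratio rescaling.

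With the replicate number as a block, counts were 14, 10, 19, 59, 27 in the 5 tables in the order of the list above and 10, 9, 59, 59, 6 for the 5 differences. The numbers do not pair the libraries: deviations of libraries with the same number correlated between -0.197 and 0.127, 1 of 15 pairs over 0.1, and no table had each library closest to its own number. Depth is unknown, and TPM differences under the filter limit were not assessed.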
